A study of Mus musculus with 172 samples.

Results

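The microglia genes described here are 31 genes known as markers of microglia, the resident macrophages of the brain. Each was taken where it is listed in the cortex expression tables of this series. All 31 were among the 14896 genes listed in cortex, and 30 of them, all but *Gpr34*, were among the 14107 genes listed in liver. The rule that chose them uses their names and no measured value, although earlier results of these data were known when they were chosen.

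The mice were males of 11 to 14 weeks from 33 BXD/RwwJ lines, which are recombinant inbred lines carrying a mosaic of the C57BL/6J (B6) and DBA/2J (D2) genomes, from both parental strains and from their reciprocal F1 crosses (BD-F1 and DB-F1). Sleep-deprived (SD) mice were kept awake by gentle handling for 6 h from light onset (ZT0), control (Ctr) mice of the same line were left undisturbed, and both were killed at ZT6. RNA from about 3 mice per line, tissue and condition was pooled into 1 library, with fewer mice in BXD79, BXD85 and BXD101, so that each line gave 1 Ctr and 1 SD value per tissue. B6 and D2 were sampled at the start and at the end of the collection (B6-1, B6-2, D2-1 and D2-2), which gave 39 Ctr and 39 SD pools per tissue. A further 4 older lines, BXD/TyJ, carried 4 Ctr and 4 SD libraries per tissue and were kept apart.

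Microglia sense injury through purinergic and immunoreceptor proteins, take up cellular debris into lysosomes, and tag synapses with the complement protein C1q. They depend on signalling through the receptor CSF1R, and their transcription is organised by the factor PU.1. In healthy cortex these cells are distinguished from neurons and other glia by the genes described here, although several of the genes, such as those for lysosomal enzymes, are also active in other cells. In bulk tissue, fewer cells of a type and less RNA per cell cannot be told apart.

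The cortex libraries held between 18995492 and 28998853 reads in listed genes in the Ctr pools and between 19025159 and 28685060 in the SD pools, and the liver libraries between 4681101 and 8269401. Levels are log2 CPM, read counts scaled to library size, as deposited. A change is called where its p from limma, after Benjamini-Hochberg adjustment across the whole table, was below 0.05. Of the lists of genes of other cell types, 0 of 8 lymphocyte genes, 1 of 10 monocyte and neutrophil genes and 1 of 7 erythroid genes were listed in cortex, while all 12 astrocyte, 12 oligodendrocyte, 12 endothelial and mural and 12 neuronal genes were.

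Promoter windows of 300 bases, from 250 bases before to 50 bases after the transcription start (RefSeq, build GRCm38.p6), were matched for 23 of the 31 genes, giving 27 windows. The core of the PU.1 motif, GAGGAAGT on either strand, occurred in 5 of the 27 windows (18.5%) and in 2.79% of the 14133 windows of all genes listed in cortex. These windows are shown because PU.1 is the factor around which microglial transcription is organised, and the capitals mark the letters matched by any of the motifs searched. A match is a stretch of letters and was not tested for binding.
Ctss, chr3:95526536-95526835, + strand: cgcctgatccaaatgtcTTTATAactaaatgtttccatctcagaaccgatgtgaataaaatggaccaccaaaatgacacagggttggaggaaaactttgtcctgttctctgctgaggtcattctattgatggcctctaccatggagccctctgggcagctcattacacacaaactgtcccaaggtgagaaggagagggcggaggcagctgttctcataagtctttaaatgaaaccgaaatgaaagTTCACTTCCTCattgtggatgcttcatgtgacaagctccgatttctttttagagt
Inpp5d, chr1:87620062-87620361, + strand: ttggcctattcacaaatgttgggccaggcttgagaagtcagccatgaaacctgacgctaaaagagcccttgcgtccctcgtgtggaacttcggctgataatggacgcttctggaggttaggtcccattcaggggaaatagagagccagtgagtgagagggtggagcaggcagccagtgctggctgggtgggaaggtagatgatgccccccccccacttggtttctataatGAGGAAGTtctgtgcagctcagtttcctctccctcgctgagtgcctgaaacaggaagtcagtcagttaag
C1qc, chr4:136892865-136893164, - strand: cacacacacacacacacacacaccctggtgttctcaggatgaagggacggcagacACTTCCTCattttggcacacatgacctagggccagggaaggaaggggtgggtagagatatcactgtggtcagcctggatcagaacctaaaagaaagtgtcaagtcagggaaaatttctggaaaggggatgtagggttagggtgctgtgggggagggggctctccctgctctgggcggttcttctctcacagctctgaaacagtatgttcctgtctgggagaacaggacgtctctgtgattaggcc
Cd53, chr3:106790100-106790399, - strand: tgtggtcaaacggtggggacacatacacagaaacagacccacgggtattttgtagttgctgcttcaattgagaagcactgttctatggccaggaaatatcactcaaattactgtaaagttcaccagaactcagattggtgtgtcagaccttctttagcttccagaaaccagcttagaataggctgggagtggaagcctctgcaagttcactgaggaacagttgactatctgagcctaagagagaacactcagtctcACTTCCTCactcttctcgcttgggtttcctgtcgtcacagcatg
Cyth4, chr15:78596797-78597096, + strand: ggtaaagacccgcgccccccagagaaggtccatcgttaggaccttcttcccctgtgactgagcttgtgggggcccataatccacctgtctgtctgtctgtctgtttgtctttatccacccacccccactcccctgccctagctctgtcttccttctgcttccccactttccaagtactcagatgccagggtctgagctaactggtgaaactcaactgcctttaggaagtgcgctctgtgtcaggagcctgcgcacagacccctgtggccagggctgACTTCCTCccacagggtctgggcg

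Counted from the start site, the PU.1 core began at -2 in *Ctss*, at -20 in *Inpp5d*, at -195 in *C1qc*, at 7 in *Cd53* and at 27 in *Cyth4*. In *Ctss* it overlapped a match to the composite motif of PU.1 and the IRF factors, GGAANNGAA, and the first stretch of capitals there is a match to the TATA box letters TATAAA on the other strand. The composite motif was in 2 of 27 windows against 7.21% of windows of listed genes, the AP-1 motif TGANTCA in 3 against 5.17%, TATAAA in 4 against 7.37% and the E-box CACGTG in 2 against 9.43%. The AP-1 match of *Trem2* began at -9 and the E-box of *P2ry12* at -228.

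Over the 39 Ctr pools the microglia genes spanned a wide range of levels. Per kilobase of annotated exon, the mean level was highest for *Ctss*, the lysosomal protease cathepsin S, at 45.1 CPM per kb, followed by *C1qa* at 29.9 CPM per kb. The lowest were *Il1a*, the cytokine interleukin 1 alpha, at 0.369 CPM per kb and *Ptprc*, the leukocyte phosphatase CD45, at 0.722 CPM per kb. *Il1a* rested on a mean of 15.6 reads per Ctr pool, whereas *Csf1r* rested on 2392. The signature gene *Tmem119* was at 7.71 CPM per kb, and *P2ry12* at 19.2 CPM per kb.

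Sleep deprivation moved the microglia genes in both directions. In the SD pools, 6 of the 31 genes were called higher and 10 lower than in the Ctr pools. *Trem2*, the purinergic receptor genes *P2ry12* and *P2ry13*, and *Ly86* fell most, and *Hexa*, *Fcgr3*, *Tmem119* and the C1q genes rose. Of all genes listed in cortex, 68.4% were called, 33% as higher and 35.4% as lower, so that the 16 called microglia genes of 31 were no larger a share than among cortical genes at large. The median log2 fold change was -0.04 over the 31 genes and -0.01 over all genes, and the median of its size was 0.13 and 0.13. The summed level of the 31 genes had a median of 9.40 log2 CPM over the Ctr pools and of 9.42 over the SD pools. The plot of the change in each pool shows these opposite shifts gene by gene.

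**Figure D1:**
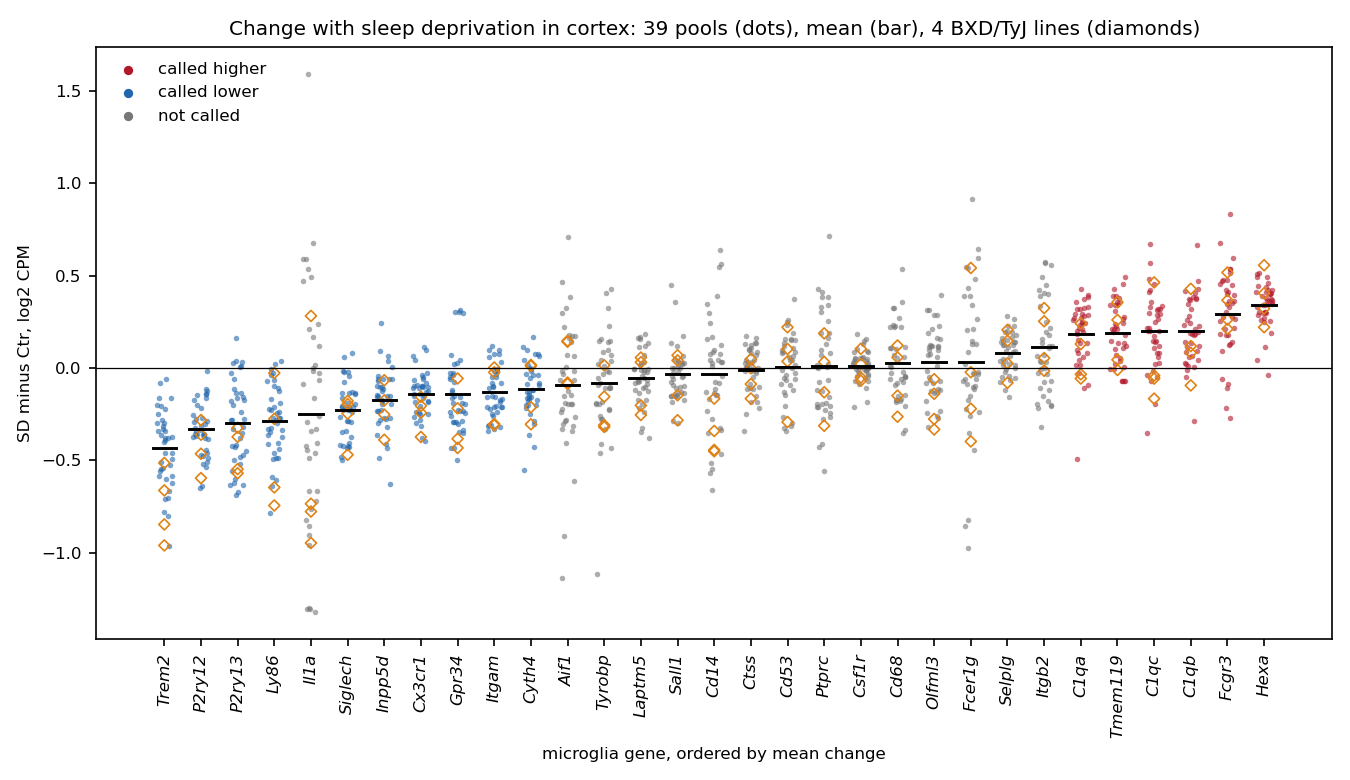
Change in cortex level with sleep deprivation (vertical axis, SD minus Ctr in log2 CPM) for the 31 microglia genes (horizontal axis), with 1 dot per pool (39), a bar at the mean and open diamonds for the 4 BXD/TyJ lines. All 39 dots of *Trem2* and of *P2ry12* lie below 0, and 38 of the 39 dots of *Hexa* lie above it.

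Among the receptors for purines, chemokines and growth factors, 4 of 5 genes fell and 1 was not called. *P2ry12* had a lowest, median and highest level of 4.80, 5.50 and 5.77 log2 CPM over the Ctr pools and of 4.68, 5.15 and 5.46 over the SD pools. All 39 pools were lower after SD, although the ranges of the Ctr and SD groups overlapped. The log2 fold change of *P2ry12*, which encodes the ADP receptor that directs microglial processes towards injury, was -0.33 ± 0.04 (SE; adjusted p = 1.10e-11), so that its level fell by 20.5%. *P2ry13*, the neighbouring ADP receptor gene, ran from 3.24 through 3.90 to 4.20 log2 CPM over the Ctr pools and from 3.17 through 3.54 to 4.07 over the SD pools, and it fell in 33 of 39 pools, with a change of -0.30 ± 0.05 (SE; adjusted p = 5.06e-08). *Cx3cr1*, the fractalkine receptor, and *Gpr34*, a lysophosphatidylserine receptor, changed less, by -0.14 ± 0.04 (SE; adjusted p = 3.99e-04) with 35 of 39 pools lower and by -0.14 ± 0.05 (SE; adjusted p = 0.00907) with 31 lower. *Csf1r*, the receptor on which microglial survival depends, had the most reads of the 31 genes and was not called, at 0.01 ± 0.04 (SE; adjusted p = 0.806), with 20 pools higher and 19 lower.

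The receptors that signal through immunoreceptor tyrosine-based activation motifs, with their adaptors and phosphatase, split, with 1 gene higher, 2 lower and 2 not called. *Trem2* had a lowest, median and highest level of 2.66, 3.13 and 3.56 log2 CPM over the Ctr pools and of 2.12, 2.73 and 3.46 over the SD pools. *Trem2* (chr17:48485726-48493472, mm9), which encodes a receptor for lipids and lipoproteins, was lower after SD in all 39 pools, and its log2 fold change of -0.44 ± 0.06 (SE; adjusted p = 6.20e-10), was the largest in size of the 31 genes. The level fell by 26.1%. *Tyrobp*, the adaptor DAP12 through which TREM2 signals, was not called, at -0.08 ± 0.07 (SE; adjusted p = 0.280), with 24 pools lower and 15 higher. *Inpp5d*, the lipid phosphatase SHIP1 that restrains this signalling, fell in 34 of 39 pools, with a change of -0.17 ± 0.03 (SE; adjusted p = 3.14e-07).

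The low-affinity immunoglobulin receptor gene *Fcgr3* went the other way. *Fcgr3* had a lowest, median and highest level of 2.08, 2.80 and 3.80 log2 CPM over the Ctr pools and of 2.23, 3.13 and 3.93 over the SD pools. In 34 of 39 pools it rose, the fitted change being 0.29 ± 0.10 (SE; adjusted p = 0.00785), and the Ctr and SD ranges overlapped over most of their width. *Fcer1g*, the adaptor chain of this receptor, was at 0.03 ± 0.15 (SE; adjusted p = 0.865). Of the stretches of 100 bases of *Fcgr3* transcripts, 2.69% also occurred in transcripts of another gene, and for the other 30 genes this was 0.

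All 3 genes of the complement C1q chains rose, by about the same amount. *C1qb* had a lowest, median and highest level of 3.98, 4.72 and 5.51 log2 CPM over the Ctr pools and of 4.19, 4.95 and 5.42 over the SD pools. *C1qb* was higher in 36 of 39 pools, *C1qc* in 33 and *C1qa* in 35. The log2 fold changes were 0.19 ± 0.06 (SE; adjusted p = 0.00440) for *C1qa*, 0.20 ± 0.08 (SE; adjusted p = 0.0259) for *C1qb* and 0.20 ± 0.08 (SE; adjusted p = 0.0323) for *C1qc*. Over the 33 BXD/RwwJ lines alone the adjusted p became 0.0661 for *C1qb* and 0.0538 for *C1qc* (limma), neither of them called. With the line as a replicate block, over all 39 pools per condition, all 3 genes were called. The adjusted p was then 2.62e-08 for *C1qa*, 6.75e-09 for *C1qb* and 1.31e-07 for *C1qc* (limma).

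Of the lysosomal genes, *Hexa*, the alpha subunit of beta-hexosaminidase, rose most of the 31 genes. *Hexa* had a lowest, median and highest level of 5.34, 5.59 and 5.90 log2 CPM over the Ctr pools and of 5.59, 5.94 and 6.07 over the SD pools. It was higher in 38 of 39 pools, by 0.34 ± 0.02 (SE; adjusted p = 1.06e-23), or 26.7%. *Ctss* and *Cd68*, the scavenger protein macrosialin, stayed near 0, at -0.01 ± 0.07 (SE; adjusted p = 0.908) and 0.02 ± 0.05 (SE; adjusted p = 0.669).

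Among the surface and secreted markers, *Tmem119* rose and *Siglech*, a sialic acid-binding lectin, fell. *Tmem119* had a lowest, median and highest level of 3.81, 4.18 and 4.45 log2 CPM over the Ctr pools and of 4.00, 4.34 and 4.65 over the SD pools. *Tmem119* was higher in 33 of 39 pools, by 0.19 ± 0.04 (SE; adjusted p = 7.28e-06), and *Siglech* was lower in 37, with a change of -0.23 ± 0.06 (SE; adjusted p = 3.74e-04). *Selplg*, the P-selectin ligand, was at 0.08 ± 0.06 (SE; adjusted p = 0.207) with 30 pools higher, and passed the threshold once line was blocked (limma, adjusted p = 7.22e-05). *Olfml3*, a secreted olfactomedin-like protein, was at 0.03 ± 0.04 (SE; adjusted p = 0.508). *Sall1*, the transcription factor that maintains microglial identity, was at -0.04 ± 0.03 (SE; adjusted p = 0.246).

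Of the 7 genes for leukocyte membrane proteins, integrins and cytoskeletal regulators, 2 fell and 5 were not called. *Itgam*, the integrin chain CD11b, fell in 32 of 39 pools, with a change of -0.13 ± 0.05 (SE; adjusted p = 0.00884), and *Cyth4*, an exchange factor for ARF proteins, in 31, with a change of -0.11 ± 0.04 (SE; adjusted p = 0.00700). Relative to the mean of the other microglia genes, *Cyth4* was not called (limma, adjusted p = 0.0575), nor was *Gpr34* (adjusted p = 0.0607). *Itgb2*, the CD18 chain that pairs with CD11b, was at 0.11 ± 0.06 (SE; adjusted p = 0.0699) with 24 pools higher, and was called higher with the line as a replicate block (limma, adjusted p = 0.00895). *Laptm5*, a lysosomal membrane protein of leukocytes, was at -0.05 ± 0.03 (SE; adjusted p = 0.148), and was called lower with that block (limma, adjusted p = 0.0232). *Aif1*, which encodes the actin-binding protein IBA1, *Cd53*, a tetraspanin, and *Ptprc* were at -0.09 ± 0.07 (SE; adjusted p = 0.255), 0.01 ± 0.05 (SE; adjusted p = 0.909) and 0.01 ± 0.06 (SE; adjusted p = 0.914).

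The 3 genes for lipopolysaccharide sensing and cytokine production held 1 that fell. *Ly86*, the MD-1 protein that binds the Toll-like receptor homologue RP105, ran from 2.58 through 3.17 to 3.62 log2 CPM over the Ctr pools and from 2.20 through 2.89 to 3.35 over the SD pools. It was lower in 37 of 39 pools, with a change of -0.29 ± 0.06 (SE; adjusted p = 5.87e-06). *Cd14*, the lipopolysaccharide co-receptor, was at -0.04 ± 0.08 (SE; adjusted p = 0.729). *Il1a* was at -0.25 ± 0.19 (SE; adjusted p = 0.236) with 26 pools lower and 13 higher, and was called lower with the line as a replicate block (limma, adjusted p = 0.0248). The SD of its change over lines was 0.64 log2 units, against 0.66 from read counting alone.

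The 4 BXD/TyJ lines, which entered none of these values, had the same signs on average in the called genes. For all 16 called genes the mean change of these lines had the sign found in the 39 pools, and for 10 of them all 4 lines had it. The same share over all called genes is not given here. *Aif1*, *Cd68*, *Fcer1g*, *Olfml3* and *Ptprc*, none of them called, had a mean change of the other sign. The change of *Trem2* was -0.96, -0.66, -0.85 and -0.52 log2 units in BXD05, BXD29, BXD29t and BXD32, and that of *Hexa* was 0.22, 0.40, 0.32 and 0.56. By their names, BXD29 and BXD29t are sister lines. The C1q genes were less uniform, *C1qc* being higher in 1 of the 4 lines. Tested in these 4 lines alone, 4 of the 31 genes were called, where 13.6% of all genes were.

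Other genes of the same cells and pathways also moved both ways. Of 41 further microglia-enriched genes listed, 8 were called higher and 11 lower, with a median log2 fold change of -0.01. Of all genes listed in cortex, 33% were called higher and 35.4% lower. The nucleic acid sensor *Tlr7* rose by 0.52 ± 0.06 (SE) and the complement receptor *C5ar1* by 0.70 ± 0.17, while the medium-chain fatty acid receptor *Gpr84* changed by -0.72 ± 0.13. Among 11 listed genes for signals that other cells send to microglia, 4 were called higher and 5 lower. *Cx3cl1*, the neuronal ligand of the falling receptor gene *Cx3cr1*, rose in 39 of 39 pools by 0.53 ± 0.03 and *Tgfb3* by 0.36 ± 0.02, whereas *Tgfb2* changed by -0.29 ± 0.04.

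Of 20 inflammatory response genes, 11 were listed, 3 of them called higher and 3 lower. *Nfkbia* and *Nfkbiz*, both of the I-kappa-B family of NF-kappa-B regulators and active in many cell types, rose by 0.57 ± 0.04 and 0.41 ± 0.03, and the NADPH oxidase gene *Cybb* changed by -0.47 ± 0.10. Of 16 listed genes that microglia induce in neurodegeneration models, 2 were called higher and 9 lower, where 33% and 35.4% of all cortex genes were. Their median log2 fold change was -0.06. Among the called genes were *Spp1*, osteopontin, at 0.32 ± 0.09, *Lgals3bp* at -0.22 ± 0.08 and the lysozyme gene *Lyz2* at -0.18 ± 0.08. Which cells carry these changes was not tested. *Csf1* is in this list and in that of signals from other cells.

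Of 8 markers of macrophages at the borders of the brain, 7 were listed, and 5 of these were called higher and 0 lower after SD, where 33% of all cortex genes were called higher and 68.4% in either direction. *Mrc1* and *Pf4* were not called, at -0.03 (adjusted p = 0.662) and -0.23 (adjusted p = 0.125). The called genes were led by *Lyve1* at 0.93 ± 0.10, the scavenger receptor *Cd163* at 0.68 ± 0.09 and *Cbr2* at 0.47 ± 0.11. Their summed level ran from 4.46 to 5.47 log2 CPM over the Ctr pools, with a median of 5.10, and from 4.96 to 5.72 over the SD pools, with a median of 5.34. These macrophages share *Csf1r*, *Fcgr3* and the C1q genes with microglia, and their part in the rises above was not tested. The only listed monocyte and neutrophil gene, *Ly6c1*, which endothelial cells also express, rose by 0.60 ± 0.04, and the only listed erythroid gene was *Alas2*, at -0.05. Astrocyte genes were called higher in 5 and lower in 1 of 12, led by *Gjb6* at 0.70 ± 0.04, endothelial and mural genes in 3 and 5 of 12, led by *Slco1a4* at -0.39 ± 0.04, and neuronal genes in 4 and 4 of 12, led by *Nefm* at 0.46 ± 0.03. Oligodendrocyte genes were called higher in 3 and lower in 4 of 12, led by *Opalin* at -1.15 ± 0.07, and precursor genes in 3 and 2 of 6, led by *Gpr17* at 0.40 ± 0.04.

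Levels of the microglia genes varied between lines, and the order of the lines in the Ctr pools returned in part in the SD pools. The median SD over the 39 Ctr pools was 0.23 log2 units for the microglia genes and 0.14 for all genes. Over the 33 BXD/RwwJ lines the median correlation between the Ctr and the SD level of a gene was r = 0.64 for the microglia genes and 0.33 for all genes. It was at least 0.8 for 10 of the 31 genes and for 7.12% of all genes, and was highest for *Ctss* at 0.93, *Selplg* at 0.91 and *C1qb* at 0.90. *Inpp5d*, *Sall1* and *Hexa* were lowest, at 0.24, 0.27 and 0.34. The Ctr and SD pools are separate mice of 1 line, and their points share the line's genome. *Fcer1g* had the widest spread after *Il1a*, from 0.52 log2 CPM in BXD48a through 2.16 to 2.96 in BXD89, a 5.41-fold range.

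The parental strains differed in most of the microglia genes, more often with D2 lower. With 4 cortex libraries per strain and the condition as covariate, 19 of 31 genes were called, 16 lower and 3 higher in D2, where 25.5% of all genes were called, 13.9% as lower and 11.6% as higher. In the SD libraries alone the count was 10, all lower in D2, where 12.1% of all genes were called. In the Ctr libraries alone it was 14, with 10 lower and 4 higher in D2, where 15.7% of all genes were called. With 1 parental pool left out, 14 to 17 genes were called, 10 to 15 of them lower and 2 to 5 higher in D2. The median D2 minus B6 difference was -0.21 log2 units over the 31 genes and 0.01 over all genes. *Fcer1g* was at 2.63 and 2.43 log2 CPM in the Ctr pools and 2.37 and 2.82 in the SD pools of B6, and at 0.85 and 1.45 log2 CPM in the Ctr pools and 1.19 and 1.01 in the SD pools of D2, without overlap, and the difference was -1.44 ± 0.15 (SE; adjusted p = 4.40e-06). *C1qb* was at 5.21 and 4.98 log2 CPM in the Ctr pools and 5.34 and 5.35 in the SD pools of B6, and at 4.00 and 4.06 log2 CPM in the Ctr pools and 4.41 and 4.43 in the SD pools of D2, also without overlap. Its difference was -0.99 ± 0.06 (SE; adjusted p = 1.06e-08), so that the level was 1.99-fold higher in B6.

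*C1qc* differed as *C1qb* did, by -0.99 ± 0.06 (SE; adjusted p = 8.68e-09), whereas *C1qa*, which lies next to *C1qc* on chromosome 4, differed by -0.22 ± 0.06 (SE; adjusted p = 0.0111). *Fcgr3* differed by -0.87 ± 0.12 (SE; adjusted p = 6.21e-05), *Tyrobp* by -0.47 ± 0.10 (SE; adjusted p = 0.00294), *Siglech* by -0.46 ± 0.08 (SE; adjusted p = 6.82e-04) and *Trem2* by -0.37 ± 0.10 (SE; adjusted p = 0.0110). The 3 genes higher in D2 were *Cd14*, at 0.74 ± 0.15 (SE; adjusted p = 0.00210), *Aif1*, at 0.48 ± 0.12 (SE; adjusted p = 0.00957), and *Ly86*, at 0.41 ± 0.09 (SE; adjusted p = 0.00253). *P2ry12*, *P2ry13*, *Hexa*, *Sall1*, *Itgam*, *Inpp5d*, *Ptprc*, *Gpr34*, *Tmem119*, *Cd68*, *Olfml3* and *Ctss* were not called, with differences from -0.20 to 0.16. The pools of both F1 crosses lay between the parents for *C1qb* in the Ctr condition, at 4.51 and 4.73 log2 CPM. Reads were aligned to the B6 reference, and the part of alignment in lower D2 levels was not tested.

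**Figure D2:**
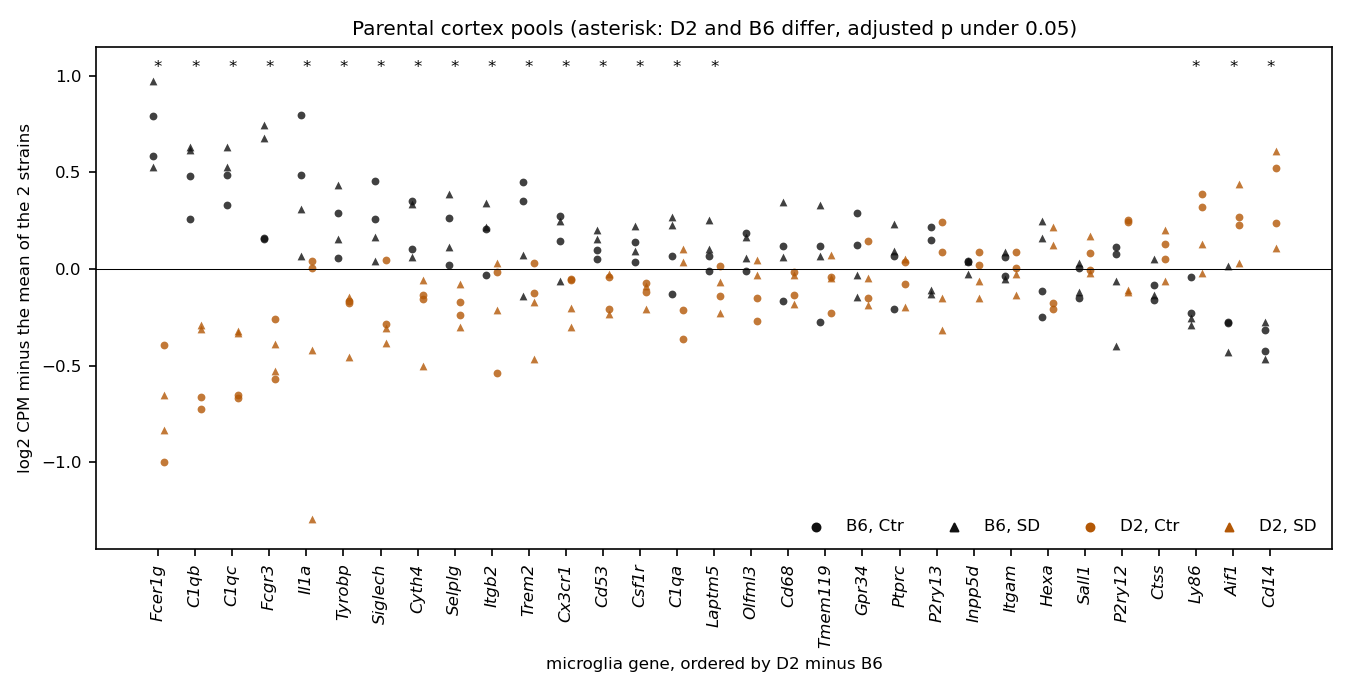
Levels of the 31 microglia genes in the 8 parental cortex libraries (vertical axis, log2 CPM minus the mean of both strains), ordered by D2 minus B6 (horizontal axis), with B6 in black, D2 in orange, circles for Ctr and triangles for SD, and an asterisk where limma called the strains different. The asterisks stand over 16 genes at the left, with D2 lower, and over 3 at the right, with D2 higher.

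Over the 39 Ctr pools the microglia genes rose and fell together in part. Of their 465 pairs, 399 had a positive Pearson correlation, with a median r of 0.31, and the median was 0.30 over the SD pools. Values for pairs of other cortex genes are not given here. After Benjamini-Hochberg adjustment over the 465 pairs, 181 positive pairs and 1 negative pair passed 0.05 in 2-sided permutation tests of r with 100000 resamples, and 177 positive pairs did so with Spearman's rho. These tests treat the pools as exchangeable, although the lines are related, all being derived from B6 and D2. Some pools are closer still. BXD48 and BXD48a, BXD65 and BXD65a, and BXD73 and BXD73b are sister lines by their names. B6-1 and B6-2, and D2-1 and D2-2, are pools of the same strain. The changes with sleep deprivation went together less, with a median r of 0.15 and 350 positive pairs. A change is the difference of 2 libraries and holds the read counting of both. From counting alone its SD was 0.16 log2 units for *Cd53* and 0.04 for *Csf1r*, against 0.17 and 0.08 over lines. The part of counting in the lower r was not tested.

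**Figure D3:**
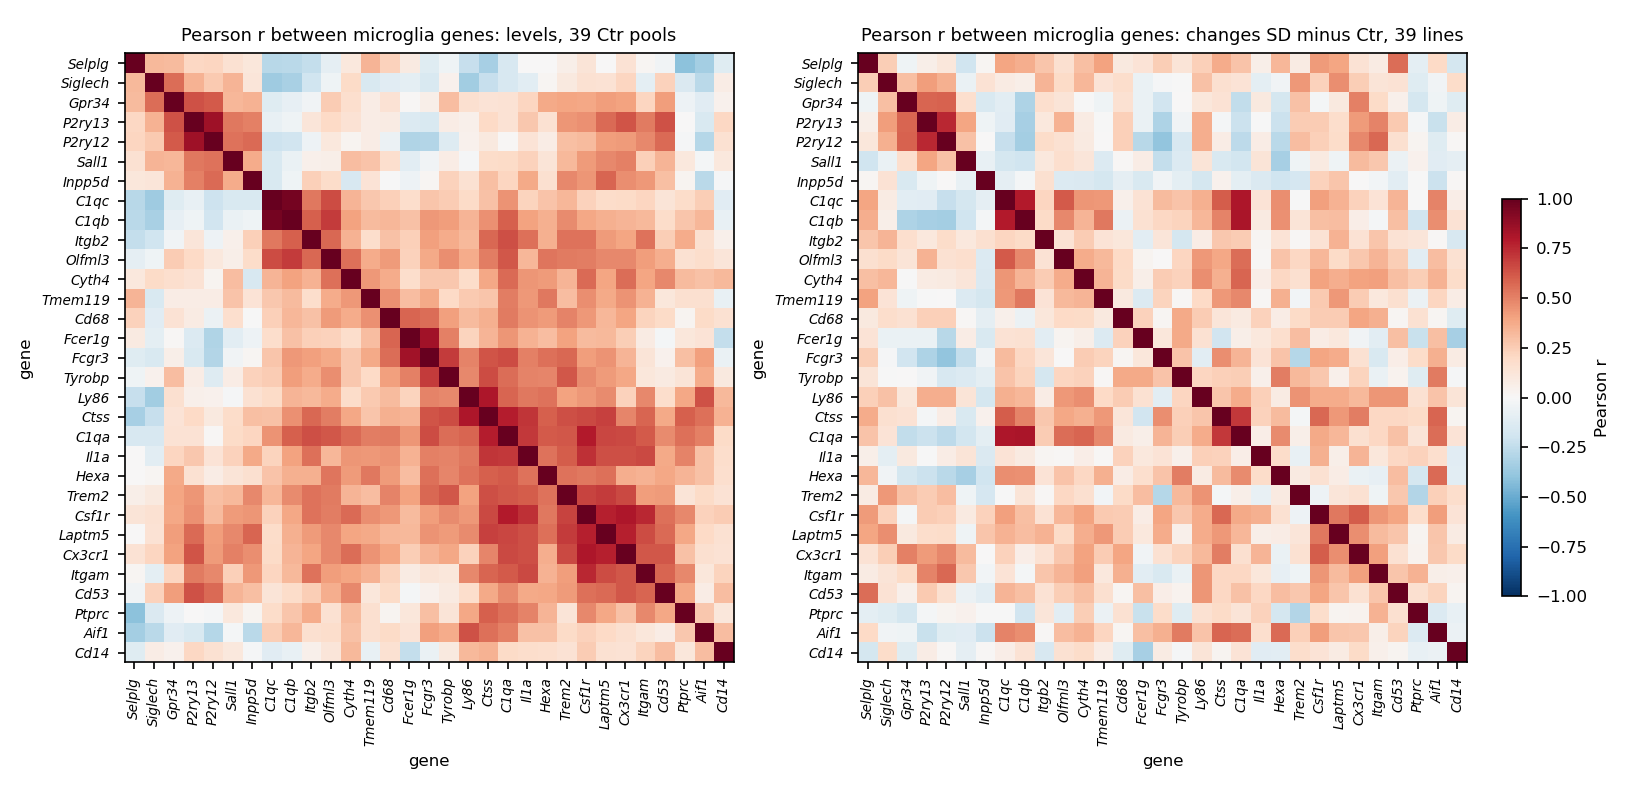
Pearson correlation between the 31 microglia genes (both axes, same order in both panels), over the levels of the 39 Ctr pools at the left and over the changes SD minus Ctr of the 39 lines at the right, from -1 in blue to 1 in red. The left panel has a large red block that holds *Csf1r*, *Laptm5* and *Cx3cr1*, and the right panel is paler.

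The 3 most closely correlated pairs were neighbours in the genome. *C1qb* (chr4:136436044-136442102, mm9) and *C1qc* (chr4:136445719-136448980) had r = 0.96 and rho = 0.96 (adjusted permutation p = 1.86e-04 and 2.58e-04), *P2ry12* (chr3:59020193-59066753) and *P2ry13* (chr3:59011818-59014804) had r = 0.85 and rho = 0.74, and *Fcgr3* and *Fcer1g*, 165 kb apart on chromosome 1, had r = 0.84 and rho = 0.84. The adjusted p was the same for all 3 pairs. The raw permutation p of these pairs, 1e-05, was the smallest that 100000 resamples can give. Without the 2 pools farthest from the median of the first gene, r was 0.95, 0.74 and 0.83. In all, 6 pairs lay within 1000 kb of each other, with a median r of 0.72, against 0.31 for the remaining pairs.

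The neighbours parted in how their changes went together. The changes of *Fcgr3* and *Fcer1g* had r = 0.12, those of *P2ry12* and *P2ry13* r = 0.76. The SD of the change from read counting alone was 0.16 for *Fcgr3* and 0.23 for *Fcer1g*, against 0.23 and 0.40 over lines. For *P2ry12* and *P2ry13* it was 0.07 and 0.12, against 0.15 and 0.23. In the C1q cluster, the level of *C1qa* went with that of *C1qb* at r = 0.59 and of *C1qc* at r = 0.45, and the changes of *C1qa* at r = 0.81 and 0.81. BXD56 stood apart here: its Ctr pool had the lowest *P2ry12*, *P2ry13* and *Inpp5d* and the highest *C1qb* and *C1qc* of the 39, and its C1q genes fell with SD, *C1qa* by 0.49 log2 units. Without BXD56, chosen after the values were seen, the changes of *C1qa* had r = 0.77 with *C1qb* and 0.76 with *C1qc*, and the levels of *P2ry12* and *P2ry13* r = 0.77.

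Pairs on different chromosomes also went together. *Csf1r* and *Cx3cr1* had r = 0.81 and rho = 0.78, *Ctss* and *Ly86* r = 0.81 and rho = 0.80, and *Csf1r* and *C1qa* r = 0.79 and rho = 0.75, with an adjusted permutation p of 1.86e-04 for r each. Against the mean of the other 30 genes, *C1qa*, *Csf1r* and *Ctss* had r = 0.88, 0.84 and 0.81. *Siglech* and *Selplg* did not follow that mean, at r = -0.08 and -0.08, and *P2ry12* followed it little, at r = 0.12. The X-linked *Gpr34* had r = 0.61 with *P2ry12* and 0.63 with *P2ry13*, and *P2ry13* had r = 0.64 with *Cd53* and 0.63 with *Cx3cr1*. The mean of the 31 genes ran from -0.30 in BXD98 to 0.34 in BXD89, in log2 units relative to the average pool.

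Other lists followed the same mean to differing degrees. The mean of the 41 other microglia-enriched genes had r = 0.86 with that of the 31 genes over the 39 Ctr pools, astrocyte genes 0.46, oligodendrocyte precursor genes 0.34, endothelial and mural genes 0.32, oligodendrocyte genes 0.20, border macrophage genes 0.20 and neuronal genes -0.07. These are descriptions over pools that share libraries.

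The genes outside the list whose levels followed the microglia mean most closely included several genes of chromosome 2. Among the 10 with the highest r were *Ctsd* (0.86), *Snx5* (0.85), *Ncf1* (0.82), *Rbbp9* (0.80), *Manbal* (0.78), *Rrbp1* (0.78), *Ovol2* (0.78), *Snrpb2* (0.77) and *Polr3f* (0.77). *Ctsd* and *Ncf1*, which encode a lysosomal protease and a subunit of the phagocyte oxidase, are genes that microglia express. Of the 10 genes, 7 lay on chromosome 2, the first starting at 142888775 and the last ending at 157222499 (mm9). *Snx5*, which encodes a sorting nexin, ran from 6.15 to 6.56 log2 CPM and had r = 0.85 and rho = 0.85, 0.83 without the 2 pools of most extreme *Snx5*, 0.86 over the 33 BXD/RwwJ lines and 0.74 over the SD pools.

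Chromosome 2 stood out in a count over all genes, made with a threshold set after the values were seen. Of 14865 genes outside the list, 70 had an absolute r of at least 0.6 with the microglia mean, 68 of these were matched to a position, and 32 lay on chromosome 2, 21 with positive and 11 with negative r. They were 2.92% of the 1096 genes listed on that chromosome, and the next highest share was 1.26%, on chromosome 19. Between 140 and 160 Mb of chromosome 2, 25 of 160 listed genes passed. Over the SD pools 39 genes of the chromosome passed. Of the 31 microglia genes, only *Il1a* (chr2:129125346-129135708) lies on chromosome 2, and against the mean of the other 30 the r of *Snx5* was 0.85. Neighbouring genes share the parental haplotype of a line, so these counts are not of independent genes, and genotypes were not used here.

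The microglia genes differed in how far they followed *Snx5*. Because *Snx5* was picked for its r with the mean of these genes over these pools, the count that follows was set in part by that choice. It is a description and no test, and the same count for other genes is not given here. Over the Ctr pools 16 of 31 had r of at least 0.5, led by *Ctss* at 0.76, *C1qa* at 0.75, *Itgb2* at 0.73, *Csf1r* at 0.71 and *Trem2* at 0.70. *P2ry12*, *Sall1*, *Selplg* and *Siglech* did not, at 0.05, -0.01, -0.07 and -0.14. *Snx5* was at 6.40 and 6.54 log2 CPM in the Ctr pools of B6 and at 6.18 and 6.17 in those of D2. In liver, the *Snx5* level had r = -0.14 with the liver mean of the 30 genes listed there, and that liver mean had r = 0.09 with the cortex mean. Whether cell share or level per cell carries these relations cannot be told apart.

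**Figure D4:**
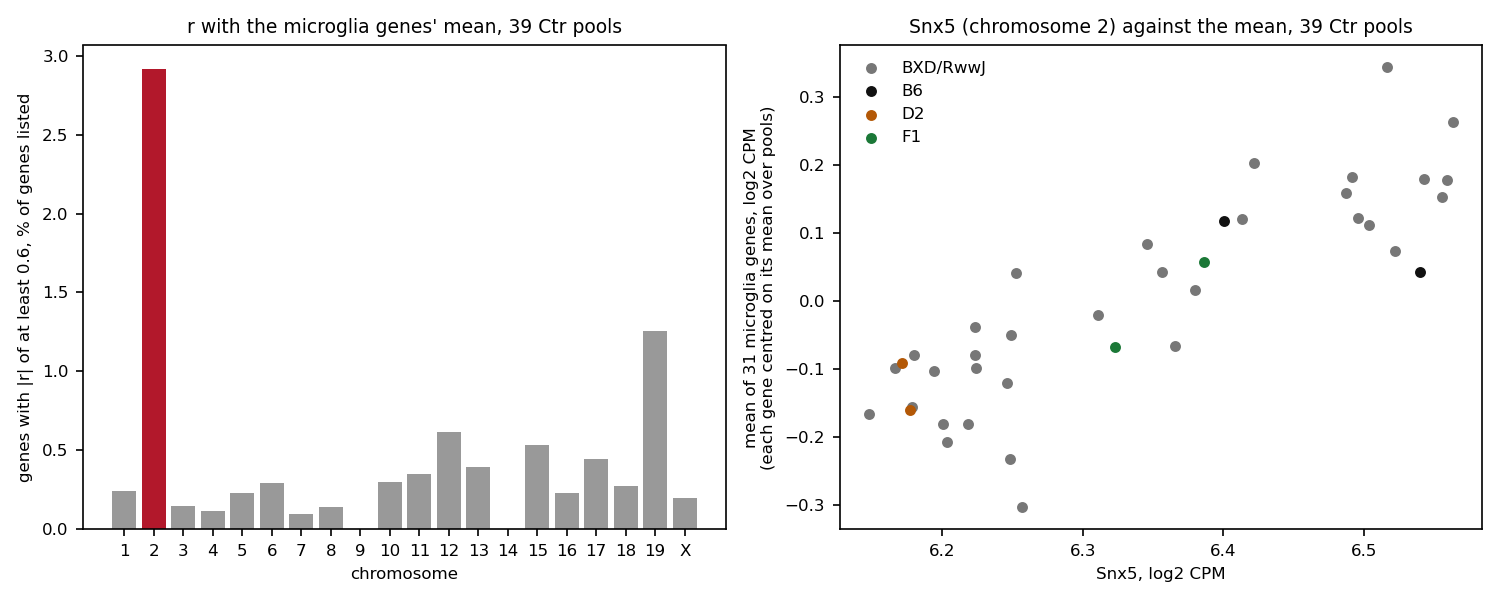
Left, share of the genes listed on each chromosome (horizontal axis) whose level had an absolute r of at least 0.6 with the mean of the 31 microglia genes over the 39 Ctr cortex pools (vertical axis, percent, the 31 genes left out). Right, that mean (vertical axis, log2 CPM, each gene centred) against *Snx5* (horizontal axis, log2 CPM), with 1 point per pool coloured by BXD/RwwJ, B6, D2 and F1. Chromosome 2 reaches 2.92%, and the Ctr pools of D2 lie at 6.18 and 6.17 log2 CPM of *Snx5*.

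In liver, the resident macrophages are Kupffer cells, which share many of these genes. Of 30 genes, 4 were called higher and 1 lower in the SD pools, where 44.2% of all liver genes were called, 21.5% as higher and 22.6% as lower. Blocking by line raised the count to 11, and the share of all liver genes called to 53.9%. The 4 that rose were *Tmem119*, by 0.82 ± 0.13 (SE), *Cd14*, by 0.51 ± 0.11, *Sall1*, by 0.30 ± 0.06, and *Fcgr3*, by 0.25 ± 0.09, and *Aif1* changed by -0.44 ± 0.10. Mean Ctr levels in liver were 2.06 ± 0.56 log2 CPM (SD, n = 39) for *P2ry12* and -0.24 ± 0.94 for *Siglech*, against 5.50 and 3.85 in cortex. *Csf1r* was at 6.89 ± 0.35 in liver and at 6.70 in cortex, and *Sall1* at 5.61 ± 0.26 and 4.95. Which liver cells carry the levels and changes of these genes, Kupffer cells or others, was not tested. *Tmem119* rested on a mean of 13.3 reads per Ctr liver pool.

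Tested within lines, the change in liver differed from that in cortex for 12 of the 30 genes, 5 with the liver change higher and 7 with it lower, where 57.6% of the 12695 genes listed in both tissues differed, 28% higher and 29.6% lower. Without the pairing by line, 7 of the 30 were called, and 47.8% of all genes. *P2ry12* and *Ly86*, which fell in cortex, were at 0.14 ± 0.13 and 0.00 ± 0.08 (SE) in liver, and the differences were 0.47 ± 0.10 (SE; adjusted p = 1.35e-04) and 0.29 ± 0.06 (SE; adjusted p = 5.06e-05). The change of *Hexa* was smaller in liver, at 0.12 ± 0.06, with a difference of -0.22 ± 0.03 (SE; adjusted p = 2.02e-09) and 34 of 39 lines showing it. *Trem2* was at -0.41 ± 0.24 in liver, and its difference was 0.02 ± 0.19 (SE; adjusted p = 0.931), with 7.41 reads per Ctr liver pool on average. *Fcgr3* rose in both tissues, with a difference of -0.04 ± 0.07 (SE; adjusted p = 0.609).

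**Figure D5:**
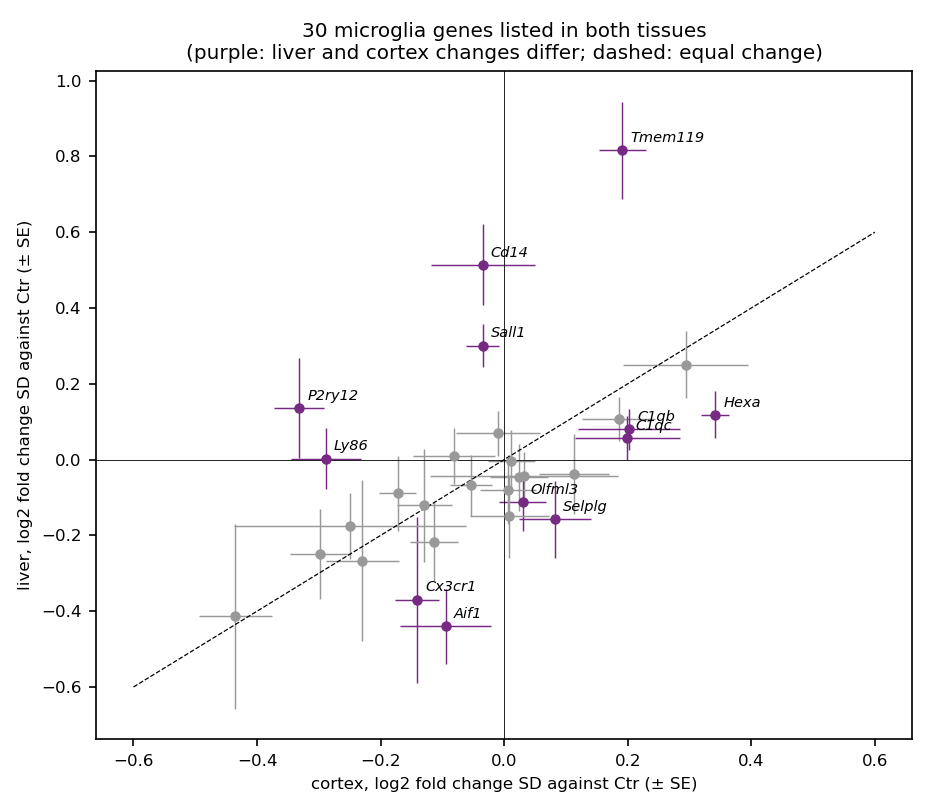
Log2 fold change SD against Ctr in liver (vertical axis) against that in cortex (horizontal axis) for the 30 microglia genes listed in both tissues, with SE bars from limma, a dashed line at equal change, and purple names for the 12 genes whose changes differed between tissues. *Tmem119*, *Cd14*, *Sall1*, *P2ry12* and *Ly86* lie above the line and *Hexa* below it.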

How the data were processed

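Stranded mRNA libraries of pooled total RNA from cortex and liver were sequenced by the authors as 100-base single-end reads. The authors checked reads with FastQC, mapped them to mm9 with STAR in its 2pass mode, counted them per RefSeq gene with HTSeq on the reverse strand, left out genes of low mean count, and scaled the counts with the TMM method of edgeR. Versions of STAR, HTSeq and edgeR are not given in the sources used here. The deposited values are log2 CPM per gene in 4 tables, 1 per tissue and condition, and whether the tables were scaled together is not given, so comparisons across them rest on the authors' scaling. All values (100%) came back to whole reads within 0.02 of a read, which gave the depths, and limma with voom weights on those reads called 10199 genes in cortex.

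Comparisons used limma 3.58.1 (R 4.3.3) with a mean trend on the deposited log2 values of all genes, 2-sided, Benjamini-Hochberg adjusted. SD was compared with Ctr over 39 and 39 pools with no block. The study's methods name limma with voom weights and state no block. Pools of 1 line deviated together (lowest r 0.30 in cortex and 0.17 in liver), since they are mice of 1 inbred line, so the line also served as a replicate block. Liver against cortex changes were tested on per-line differences, and D2 against B6 with the condition as covariate. On data simulated from these libraries, 95.2% of changes of 0.25 log2 units were recovered for cortex SD against Ctr, 86.0% for the difference between tissues and 3.51% for D2 against B6. The simulation took depths and mean levels from the libraries. It gave every gene the same relative spread beyond read counting and held no differences between lines. These shares therefore need not hold for genes whose levels vary between lines. Positions and exon lengths come from GENCODE vM1 on mm9, matched by symbol, and correlations were computed with numpy 2.4.6 in Python 3.11.15.

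Every listed gene of the 31 is named, with at most 3 called genes of largest change from each other list and the 10 genes most like the microglia mean, of which 1 is not reported here. These genes, the lists and the tests were chosen with earlier results of these data known. Alternatives covered scaling, filtering, pseudocount, weights, blocks and samples. No deposited column was left without a sample.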

Additional observations from a re-analysis of the deposited data

Results flagged for a closer look

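The change with sleep deprivation differed between liver and cortex, by limma on per-line differences over 39 lines, for 12 of 30 microglia genes, which is why they are given here. Of the 12695 genes listed in both tissues, 57.6% differed, so that these 12 were no larger a share than among genes at large. In log2 units, the liver change exceeded that in cortex by 0.62 for *Tmem119* (31 of 39 lines), 0.55 for *Cd14* (32), 0.47 for *P2ry12* (31), 0.34 for *Sall1* (33) and 0.29 for *Ly86* (31). The liver change minus the cortex change was -0.34 for *Aif1*, lower in 29 of 39 lines, -0.24 for *Selplg* (26), -0.23 for *Cx3cr1* (28), -0.22 for *Hexa* (34), -0.14 for *Olfml3* (30), -0.14 for *C1qc* (24) and -0.12 for *C1qb* (24). Without the pairing by line, *C1qb*, *C1qc*, *Cx3cr1*, *Olfml3* and *Selplg* were not called, with adjusted p from 0.0810 to 0.419 (limma). In the groups of 4 BXD/TyJ lines, no line stood apart in its cortex change by Dixon's test in any of the 31 genes.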

How the results depend on the processing

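The count of microglia genes called in cortex was 16 as reported and between 14 and 20 in 14 other settings. It was 20 with the line as a replicate block, where the share of all genes called rose from 68.4% to 76.3%, and 16 without BXD56, where that share was 68.6%. It was 4 in the 4 BXD/TyJ lines alone, where fewer samples entered and 13.6% of all genes were called. 12 genes, 4 higher and 8 lower, kept their call in all 15 settings of the larger panel. In liver the count of 5 became 11 with the line as a replicate block and 11 with that block and voom weights. The share of all liver genes called went from 44.2% to 53.9% and 54.8%. Of the differences between tissues, 12 became 7 without the pairing, and the share of all genes went from 57.6% to 47.8%. D2 against B6 gave 19 genes, and between 14 and 17 with 1 parental pool left out, where 16.1% to 22.9% of all genes were called. The Ctr libraries alone gave 14, of which 4 were higher and 10 lower in D2, with 15.7% of all genes called. The SD libraries alone gave 10, each of them lower in D2, with 12.1% of all genes called. No gene that was called changed direction under any alternative. The median r between pairs was 0.15 to 0.32 over 7 alternatives, lowest for the per-line changes. The genes of chromosome 2 at an absolute r of at least 0.6 numbered 27 to 39 in 5 alternatives chosen after seeing the data. Depth limits *Il1a* in cortex and *Trem2*, *Siglech* and *Tmem119* in liver, and each pool is 1 library with no technical repeat.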
